A study of Mus musculus with 4 samples.

Results

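The genes described here are 10 members of the leukotriene and prostaglandin pathways, followed in cultured large intestinal ILC2s given the bile acid deoxycholic acid (DCA) or vehicle. They were found by symbol among the 27179 genes of the deposited count table, and all 10 had 1 row each. They are the leukotriene synthesis genes Alox5, Alox5ap, Lta4h, and Ltc4s, the leukotriene receptor gene Cysltr1, the prostaglandin synthesis genes Ptgs1, Ptgs2, and Hpgds, and the prostaglandin receptor genes Ptgdr2 and Ptger4. The list was proposed with results of these libraries known, among them the Alox5 values, so the members' values with DCA and vehicle are given as a description and no p is given for them.

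ILC2s, lymphocytes without antigen receptors that make type 2 cytokines, were sorted from the large intestinal lamina propria of WT C57BL/6 mice as cells positive for CD45.2, CD127, and KLRG1 and negative for lineage markers, FcεRIα and CD11b included. The paper's section on mice gives an age of 6 to 8 weeks, and its study design gives a range with a higher upper age. It states in one place that C57BL/6J mice of both sexes were used and in another that they were males only. All cells grew for 5 days with IL-33, IL-25, IL-7, and IL-2, each at 10 ng/mL, and were then treated with vehicle (2 libraries, the controls) or with DCA at 100 μM (2 libraries). The design text gives a treatment of 16 hours and the paper one of 24 hours. Neither says whether the replicates came from separate mice or from wells of one culture, so the spread between them may be technical. The cells had been kept with IL-25 and IL-33 before either treatment, so a resting ILC2 was not measured.

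Leukotrienes and prostaglandins are lipid mediators that cells make from arachidonic acid, which cytosolic phospholipase A2 frees from membranes. In one branch, 5-lipoxygenase (Alox5), helped by its activating protein FLAP (Alox5ap), makes leukotriene A4, which leukotriene A4 hydrolase (Lta4h) turns into leukotriene B4 and leukotriene C4 synthase (Ltc4s) into the cysteinyl leukotrienes. In the other, the cyclooxygenases (Ptgs1 and Ptgs2) make prostaglandin H2, from which hematopoietic prostaglandin D synthase (Hpgds) makes prostaglandin D2 and prostaglandin E synthases make prostaglandin E2. ILC2s are known to respond to cysteinyl leukotrienes through CysLT1 and to prostaglandin D2 through CRTH2, the product of Ptgdr2, which raise their type 2 cytokine output, and prostaglandin E2 and prostacyclin are known to restrain them.

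Libraries held between 26564059 and 244165712 counts, and DCA replicate 2 was the deepest. The 2 libraries of a treatment are called a pair, always with replicate 1 given first. Values below are CPM, the counts of a gene scaled to a fixed library total, with TMM scaling, an edgeR method that corrects library totals for composition. A library at 0 counts can hold up to 3 counts by counting error alone, if counts are independent. That is 0.0820 CPM in vehicle replicate 1 and 0.115 CPM in vehicle replicate 2. For DCA replicate 1 that limit is 0.0928 CPM, and for DCA replicate 2 it is 0.0125 CPM. Of 13 ILC2 marker genes, 12 had a mean above 10 CPM, with Gata3 at 599 to 839 CPM, and Thy1, the other one, was at 4.24 CPM in DCA replicate 1 and below 0.06 CPM elsewhere. Among markers of cells that are rich in leukotriene enzymes, 6 of 12 mast cell and basophil genes (Mcpt1, Mcpt2, Cma1, Tpsb2, Fcer1a, and Ms4a2), 6 of 12 macrophage and monocyte genes (Csf1r, Cd14, C1qa, C1qb, C1qc, and Fcgr1), 6 of 7 neutrophil genes, and 5 of 6 eosinophil genes were at 0 in all 4 libraries. Summed over the mast cell and basophil list, levels were 365 and 288 CPM in the vehicle pair against 302 and 159 CPM in the DCA pair, nearly all of it Kit, which ILC2s can express. The mast cell tryptase gene Tpsab1 had 92 and 120 counts in the vehicle pair (2.51 and 4.58 CPM) against 0 in both DCA libraries. The basophil protease gene Mcpt8 had 128 and 121 counts against 146 and 0. Cpa3, of the same list, had 0 counts in both vehicle libraries against 6 and 84 in the DCA pair (0.186 and 0.349 CPM). The macrophage and monocyte list summed to 24.8 and 26.8 CPM in the vehicle pair against 7.30 and 10.3 CPM in the DCA pair, mostly Cd68. No neutrophil marker passed 1 CPM in any library, and the eosinophil list summed to 1.26 to 5.70 CPM, all of it Ccr3. The tuft cell list summed to 118 and 40.0 CPM with vehicle against 59.2 and 103 CPM with DCA, nearly all Avil. Its gene Dclk1 was at 0 in all 4 libraries. In bulk RNA, fewer cells that express a gene and less RNA per cell cannot be told apart.

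Promoter sequence is shown for Alox5 and Hpgds because they are the 2 members whose vehicle and DCA libraries did not overlap, one higher and the other lower with DCA. The same held for 33.3% of the 11184 genes that averaged 1 CPM or more, so the choice is a matter of display. RefSeq windows on GRCm38.p6 (the mm10 build) were found for 8 of the 10 members. The 250 bases before the start site lie at chr6:116461179-116461428 on the minus strand for Alox5 and at chr6:65144731-65144980 on the minus strand for Hpgds. The start site of the Hpgds window, 65144730, lies 251 bases inside the outer end of the RefSeq gene, so this window falls within the span of the gene, whereas that of Alox5 lies outside it. They are written 5′ to 3′ in lower case, with capitals for matches to any of 7 motifs searched on both strands.
Alox5: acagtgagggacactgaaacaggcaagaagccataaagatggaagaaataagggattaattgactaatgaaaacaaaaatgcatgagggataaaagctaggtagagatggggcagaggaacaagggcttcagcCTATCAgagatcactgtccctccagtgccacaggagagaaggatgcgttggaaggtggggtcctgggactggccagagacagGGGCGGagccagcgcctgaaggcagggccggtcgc
Hpgds: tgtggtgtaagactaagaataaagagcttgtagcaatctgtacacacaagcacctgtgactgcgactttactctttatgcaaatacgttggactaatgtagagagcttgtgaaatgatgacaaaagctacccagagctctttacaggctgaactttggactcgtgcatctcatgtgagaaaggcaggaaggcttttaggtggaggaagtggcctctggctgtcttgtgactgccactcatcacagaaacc
The Alox5 window held 1 GC box (GGGCGG, found in 32.7% of 32851 such windows of all genes) and 1 GATA motif (GATA with A or T before it and A or G after it, found in 26.5%), and the Hpgds window held none. The other motifs, found in neither window, were the TATA box (TATAAA, in 12.4% of windows), the CCAAT box (CCAAT, 33.8%), the cyclic AMP response element (TGACGTCA, 1.55%), the AP-1 motif (TGANTCA, 6.75%), and the composite C/EBP and ATF motif (TGATGNAA, 3.45%). GC content was 52.8% for Alox5 and 45.2% for Hpgds, against a median of 52.4% over all windows. Such matches describe these letters in these windows and are not measured binding sites.

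In the leukotriene branch, Alox5 was higher in both DCA libraries than with vehicle, and the enzyme for cysteinyl leukotrienes was barely detected. Alox5 (Entrez gene 11689, chromosome 6, 116410071 to 116461178) had 1146 and 272 counts in the vehicle pair (31.3 and 10.4 CPM) against 3465 and 11060 counts in the DCA pair (107 and 46.0 CPM). The DCA pair lay above the vehicle pair, and the lower DCA library exceeded the higher vehicle library 1.47-fold. The libraries also differed within each treatment, 3.02-fold between the vehicle replicates and 2.33-fold between the DCA replicates. Alox5 thus had a log2 fold change of 1.87 (standard error 0.96, taken from how log2(CPM + 1) varied between libraries, n = 2 per treatment), from means of 20.8 ± 14.8 CPM (SD, n = 2) with vehicle and 76.5 ± 43.3 CPM (SD, n = 2) in the DCA pair. A difference between the vehicle replicates at least as large as that of Alox5, on the log2(CPM + 1) scale, was found for 17.6% of the 11184 genes tested, which are those that averaged 1 CPM or more. It was 2.85 on the log2 scale without vehicle replicate 1, 1.29 without vehicle replicate 2, 1.14 without DCA replicate 1, and 2.36 without DCA replicate 2. With DCA replicate 2 thinned to 31497709 counts, in the range of the other libraries, it was 1.88.

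Alox5ap, whose product FLAP presents arachidonic acid to 5-lipoxygenase, did not follow Alox5. It was low, with 50 and 102 counts in the vehicle pair (1.37 and 3.89 CPM) against 24 and 1733 counts in the DCA pair (0.742 and 7.20 CPM). The lowest and the highest library were both DCA-treated, 9.70-fold apart. DCA replicate 1, the library with the most Alox5, held the least Alox5ap. The log2 fold change of Alox5ap was 0.60 (standard error 1.23), and it was -1.82 without DCA replicate 2 and 1.54 without vehicle replicate 2, so its direction rests on single libraries. Without vehicle replicate 2 or without DCA replicate 1 (1.44), Alox5ap had a larger fitted value than Alox5. An antisense gene, Gm19719, covers 13.3% of its exon length, and the table gives it at most 8 counts per library.

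Lta4h, which makes leukotriene B4, varied little. It was at 144 and 171 CPM in the vehicle pair against 192 and 166 CPM in the DCA pair, and the treatments overlapped. For Lta4h the log2 fold change was 0.19 (standard error 0.16). Ltc4s, by contrast, had 0 and 8 counts in the vehicle pair against 0 and 11 in the DCA pair. None of its values passed 0.31 CPM, so no fold is given, and an antisense gene, Gm26542, overlaps 26.4% of its exon length.

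Cysltr1, the receptor for cysteinyl leukotrienes, was the most abundant member in CPM and was at the same mean level in both treatments. It was at 377 and 259 CPM in the vehicle pair against 326 and 311 CPM in the DCA pair, with both DCA libraries between the vehicle libraries. Means were 318 ± 83.4 CPM (SD, n = 2) and 318 ± 10.6 CPM (SD, n = 2), a log2 fold change of 0.0027 (standard error 0.27) whose sign changed between scalings. With each library left out in turn it ranged from -0.24 to 0.27.

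**Figure D1:**
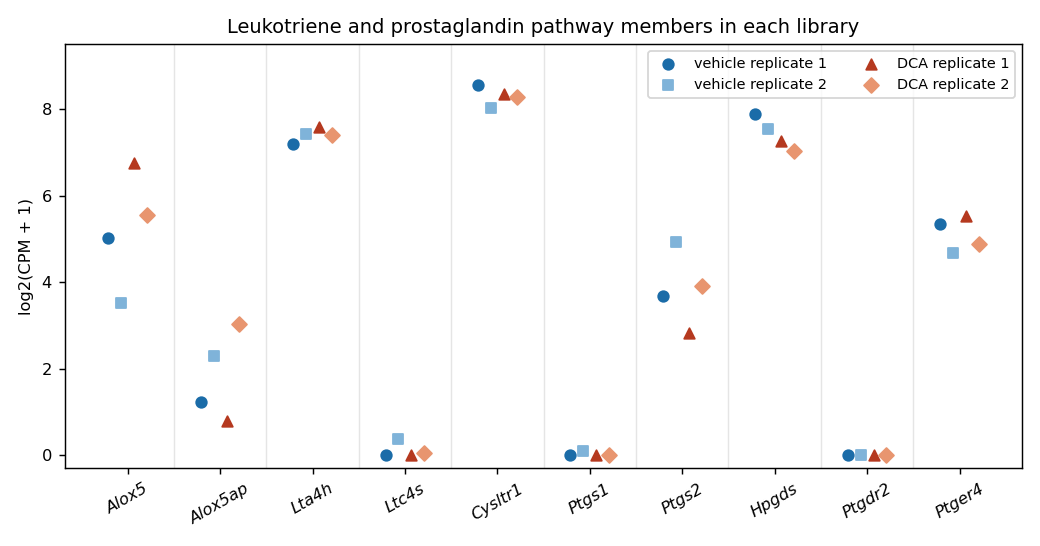
Level of each of the 10 members in each library, as log2(CPM + 1), with vehicle libraries in blue and DCA libraries in red. Both DCA points of Alox5 lie above both vehicle points, both DCA points of Hpgds lie below, and Ltc4s, Ptgs1, and Ptgdr2 lie at or near 0 in all 4 libraries.

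In the prostaglandin branch, Hpgds was the most abundant of the member enzymes, and Ptgs2 was the only cyclooxygenase with more than 2 counts in any library. Hpgds (Entrez gene 54486, chromosome 6, 65117293 to 65144981) had 8627 and 4819 counts in the vehicle pair (236 and 184 CPM) against 4911 and 31431 counts in the DCA pair (152 and 131 CPM). The DCA pair lay below the vehicle pair, although the lower vehicle library was only 1.21-fold above the higher DCA library. Means were 210 ± 36.6 CPM (SD, n = 2) with vehicle and 141 ± 15.0 CPM (SD, n = 2) in the DCA pair. That is -0.57 on the log2 scale (standard error 0.21). Leaving out each library in turn gave -0.74 to -0.41, and the alternatives with all libraries gave -0.60 to -0.56. Mast cells and some macrophages also express Hpgds. Of their markers, Tpsab1 and the macrophage and monocyte list, mostly Cd68, were lower in both DCA libraries too (the list at 24.8 and 26.8 CPM against 7.30 and 10.3 CPM), and Kit (359 and 279 CPM against 297 and 158 CPM) overlapped between treatments. Mcpt8 overlapped as well (128 and 121 counts against 146 and 0). Cpa3 went the other way at a low level, with 0 counts in both vehicle libraries against 0.186 and 0.349 CPM in the DCA pair. Mcpt4 and Prss34 were detected only in DCA replicate 2, the deepest library. The part of such cells in the Hpgds difference was not tested.

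Ptgs2, the inducible cyclooxygenase COX-2, was at 11.9 and 29.5 CPM in the vehicle pair against 6.12 and 14.1 CPM in the DCA pair. DCA replicate 2 lay between the vehicle libraries, so the treatments overlapped, and replicates of one treatment differed 2.48-fold with vehicle and 2.31-fold with DCA. The log2 fold change of Ptgs2 was -1.03 (standard error 0.83), and it was -0.23 without vehicle replicate 2. Ptgs1, the constitutive cyclooxygenase COX-1, had 2 counts in vehicle replicate 2 and 0 in the other libraries, the deepest one included.

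The 2 prostaglandin receptor genes differed in detection. Ptgdr2, which encodes the prostaglandin D2 receptor CRTH2 that is often used to mark ILC2s, had 0 counts in all 4 libraries. If counts are independent, that allows at most 0.0125 CPM in DCA replicate 2 by counting error alone. Amplified reads are not independent molecules, so the true limit is higher, by an amount that was not measured. The exons of the coding gene Ccdc86 on the opposite strand cover 39.0% of the Ptgdr2 exon length. Since the strand setting of the count is not given in the sources used here, reads in that stretch could have been left out. They could also have been given to Ccdc86, which had 1584 to 9863 counts. The rest of the Ptgdr2 exon length, outside that stretch, also had 0 counts. Ptger4, the prostaglandin E2 receptor EP4, was at 39.4 and 24.4 CPM in the vehicle pair against 45.3 and 28.3 CPM in the DCA pair. The treatments overlapped, and replicate 1 was the higher library of each pair. Its log2 fold change was 0.20 (standard error 0.47), with -0.18 without DCA replicate 1 and 0.56 without vehicle replicate 1. A processed pseudogene, Gm15937, overlaps 15.3% of the Ptger4 exon length on the opposite strand.

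In all, 7 members had a mean of at least 1 CPM and entered the fit, and Ltc4s, Ptgs1, and Ptgdr2 did not. Among the 7, vehicle and DCA libraries stayed apart for 2 (1 higher and 1 lower with DCA), beside 33.3% of all 11184 genes tested. Both DCA libraries were higher for 18.6% of these genes and lower for 14.7%, so nothing is read from the members' count. The fitted log2 fold change was above 0 for 5 of the 7, and their median was 0.19, against 0.0080 over all genes tested. One of the 5 was Cysltr1, whose sign differed between scalings, and leaving out single libraries gave medians from -0.10 to 0.042, so neither value gives the members a direction.

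Levels of different genes were compared as CPM per kb of merged exons (GENCODE vM21), over the 4 libraries. Cysltr1 was at 61.9 ± 9.44 CPM per kb (SD, n = 4), above every other member in each library. Lta4h followed at 27.6 ± 3.22 CPM per kb (SD, n = 4) and Hpgds at 27.3 ± 7.12 CPM per kb (SD, n = 4), and the ranges of these neighbors overlapped. By merged exons their order followed treatment, though only narrowly in vehicle replicate 2. Hpgds was the higher in the vehicle pair (36.7 and 28.6 against 23.6 and 28.0 CPM per kb) and Lta4h in the DCA pair (31.5 and 27.3 against 23.6 and 20.3 CPM per kb). Alox5 was next, at 11.9 ± 10.1 CPM per kb (SD, n = 4) with 7.63 and 2.53 in the vehicle pair against 26.1 and 11.2 in the DCA pair, then Ptger4 at 5.17 ± 1.45, Ptgs2 at 3.37 ± 2.18, and Alox5ap at 2.32 ± 2.07 CPM per kb (SD, n = 4 each). In vehicle replicate 2, Alox5 was below Ptger4 (3.67), Ptgs2 (6.44), and Alox5ap (2.74 CPM per kb). From Lta4h downward, the range of every member over the libraries overlapped that of the next one. With the length of RefSeq-matched transcripts in place of merged exons, Lta4h came first at 83.0 CPM per kb and Cysltr1 second at 61.9, and the order of the other means stayed as given. Lta4h was then above Hpgds (mean 50.5 CPM per kb) in both treatments, so their switch with treatment held only for merged exons.

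**Figure D2:**
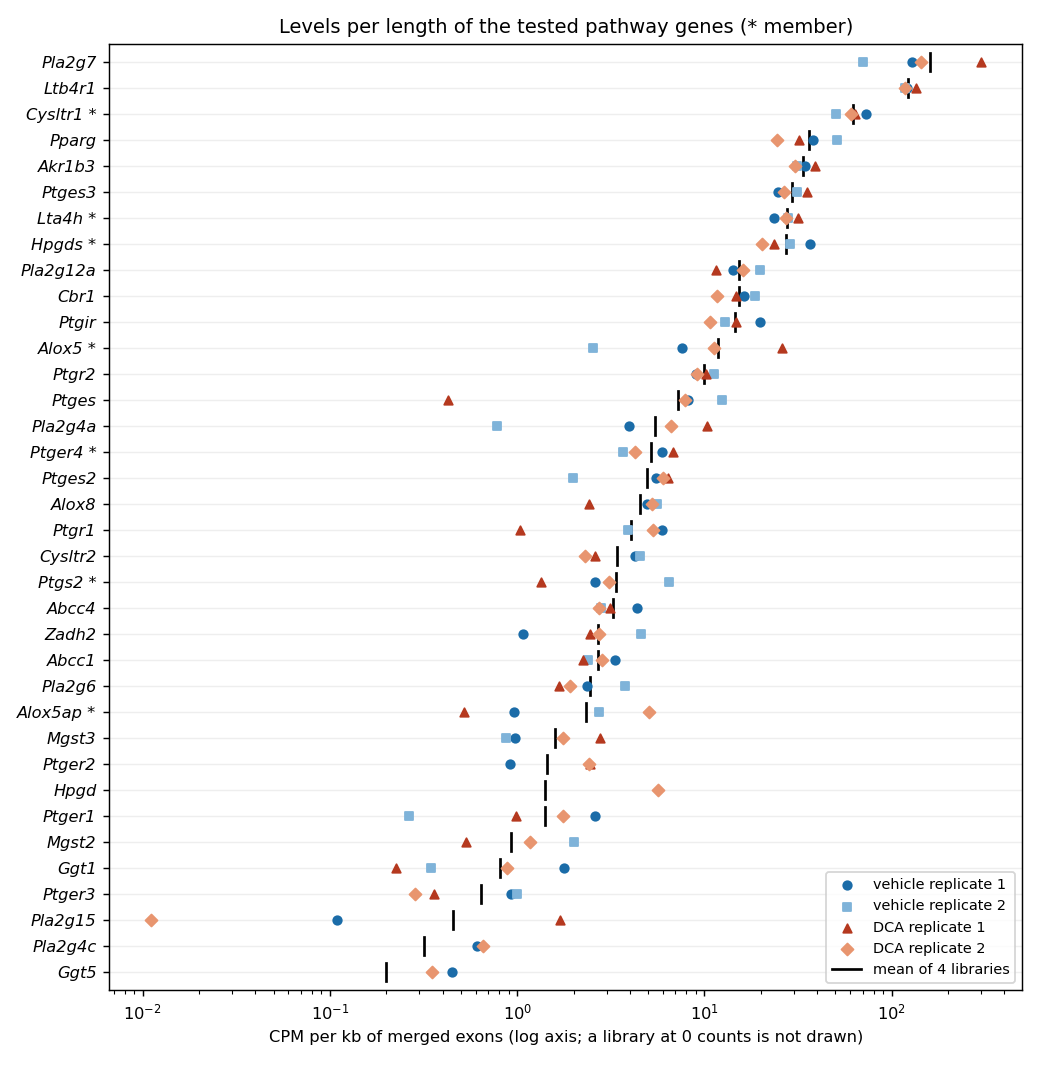
CPM per kb of merged exons on a log axis for the 7 tested members (asterisks) and the 29 other tested pathway genes, with 1 point per library and a black bar at the mean of 4 libraries. Pla2g7, Ltb4r1, and Cysltr1 have the highest means, and Alox5, Pla2g4a, Ptges, and Alox5ap spread widely between libraries.

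The rest of the pathway was followed with a list of 50 genes picked by function. Of these, 29 had a mean of at least 1 CPM and were tested, and 11 had 0 counts in all 4 libraries. In the quasi-likelihood test of edgeR, with Benjamini-Hochberg adjustment over all genes, 0 of the 29 had an adjusted p under 0.05, beside 0.00% of the 11184 genes tested. At an unadjusted p under 0.05 there was 1 of the 29, beside 4.27% of all genes tested. DESeq2 called 1 of the 29 (Hpgd), beside 1.14% of all genes, and the edgeR test without a filter on low counts called 1 of 39 (Pla2g7), beside 0.203%. Without vehicle replicate 1 the edgeR test called 0 pathway genes, beside 0.18% of all genes. The fitted log2 fold change was above 0 for 11 and below 0 for 18, with a median of -0.17. In that edgeR test each of the 29 genes had the same adjusted p, 0.999. The genes named below are those with an unadjusted p under 0.05 and the most abundant gene of each group, and in addition Pla2g4a, Ptges, Ptges2, Ptger2, Ptger3, Ptgir, Cysltr2, Mgst2, and Hpgd, which were chosen after their values were seen.

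Among the phospholipases A2, 6 of 8 genes were tested. Pla2g7, which encodes the enzyme that degrades platelet-activating factor and does not serve arachidonic acid release, was at 372 and 205 CPM in the vehicle pair against 871 and 418 CPM in the DCA pair. The DCA pair lay above the vehicle pair, by 1.13-fold at the narrowest. Its log2 fold change was 1.16 (standard error 0.68, unadjusted p = 0.0358, adjusted p = 0.999 by edgeR), and it was 0.54 without DCA replicate 1. Without a filter on low counts the adjusted p of Pla2g7 in that test was 0.0246, and under the other alternatives it ranged from 0.127 (DESeq2) to 1.00. Pla2g4a, the cytosolic phospholipase A2 that frees arachidonic acid for 5-lipoxygenase, was at 25.4 and 4.96 CPM in the vehicle pair against 66.0 and 42.6 CPM in the DCA pair. As with Alox5, DCA replicate 1 was the highest library and vehicle replicate 2 the lowest. Pla2g4a had a log2 fold change of 1.84 (standard error 1.12, unadjusted p = 0.0527, adjusted p = 0.999 in the same edgeR test). It was 3.42 without vehicle replicate 1 and 1.10 without vehicle replicate 2.

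How closely other genes tracked Alox5 was described with Pearson's r of log2(CPM + 1) over the 4 libraries. The 3 closest genes were Pttg1ip, Bcl9, and Btbd9, each with an r of 1.00. With only 4 libraries such values are common: 346 of 11183 other genes (3.09%) reached an r of 0.95 or more. Pla2g7 was among them at 0.988, in place 84, and Pla2g4a at 0.973, in place 179.

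**Figure D3:**
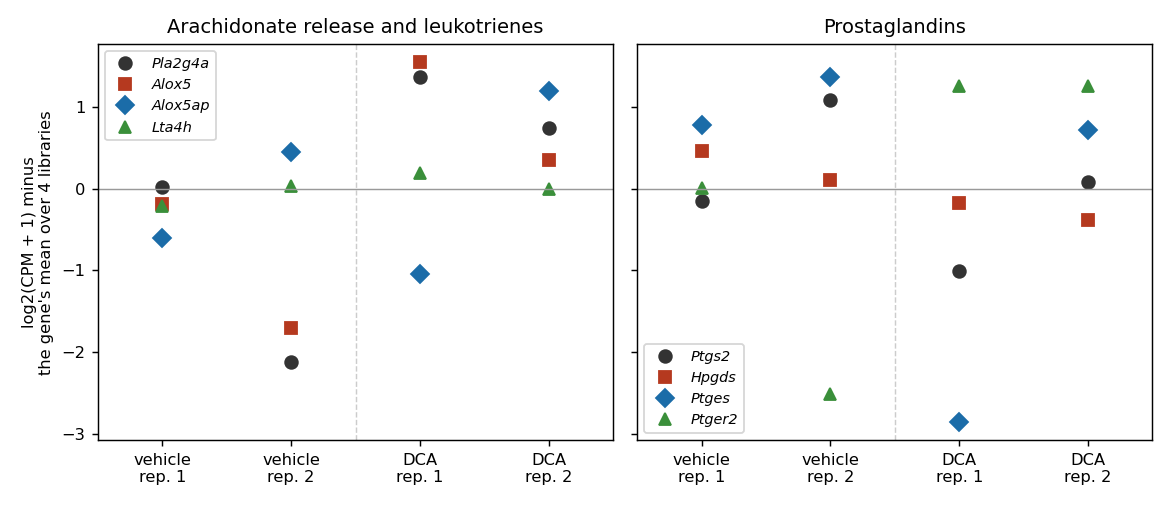
Difference of log2(CPM + 1) from the gene's own mean over the 4 libraries, for Pla2g4a, Alox5, Alox5ap, and Lta4h (left) and Ptgs2, Hpgds, Ptges, and Ptger2 (right). Alox5 and Pla2g4a are lowest in vehicle replicate 2 and highest in DCA replicate 1, where Alox5ap, Ptgs2, and Ptges are at their lowest.

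Of the other lipoxygenases only Alox8 was tested, at 17.7 and 19.8 CPM in the vehicle pair against 8.57 and 18.6 CPM in the DCA pair, and Alox12b, Alox12e, and Alox15 had 0 counts. Among 9 other genes of leukotriene synthesis, breakdown, and export, 5 were tested. Abcc1, the exporter of leukotriene C4, was the most abundant in CPM, at 50.0 and 36.2 CPM in the vehicle pair against 33.9 and 43.0 CPM in the DCA pair. Mgst2 encodes a microsomal enzyme that can also make leukotriene C4. It was at 0 and 7.41 CPM in the vehicle pair against 1.98 and 4.34 CPM in the DCA pair. The counts were 0 and 194 with vehicle against 64 and 1044 with DCA, the last from the deepest library. Vehicle replicate 1 was at 0, and the sign of the fitted value differed between methods.

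Of 5 other leukotriene receptor genes, 2 were tested. Ltb4r1, the high-affinity leukotriene B4 receptor BLT1, was at 168 and 165 CPM in the vehicle pair against 187 and 165 CPM in the DCA pair, for a log2 fold change of 0.08 (standard error 0.091, unadjusted p = 0.735, adjusted p = 0.999 by edgeR). Its level per length, 123 ± 7.62 CPM per kb (SD, n = 4), was above that of the highest member, Cysltr1, at 61.9 CPM per kb. Cysltr2, the second cysteinyl leukotriene receptor, was at 12.3 and 12.9 CPM in the vehicle pair against 7.51 and 6.61 CPM in the DCA pair. The DCA pair lay below the vehicle pair, with replicates within 1.14-fold of each other, and the log2 fold change was -0.84 (standard error 0.088, unadjusted p = 0.282, adjusted p = 0.999 in the same test). On log2(CPM + 1), the scale of the standard error, the Cysltr2 difference was -0.76.

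Among the other prostanoid synthases, 5 of 8 genes were tested. Akr1b3, an aldose reductase that can make prostaglandin F2α, was the most abundant in CPM, at 287 and 260.5 CPM in the vehicle pair against 327 and 254 CPM in the DCA pair. Ptges, the inducible prostaglandin E synthase that works with COX-2, was at 32.2 and 49.0 CPM in the vehicle pair against 1.67 and 30.8 CPM in the DCA pair. The DCA libraries differed 18.4-fold, and the higher of them was just below the lower vehicle library. The log2 fold change of Ptges was -1.32 (standard error 1.81, unadjusted p = 0.289, adjusted p = 0.999 in the edgeR test), and leaving out DCA replicate 1 gave -0.41, leaving out DCA replicate 2 gave -4.60. On log2(CPM + 1), the scale of the standard error, the Ptges difference was -2.15. Ptges2 was at 27.8 and 10.0 CPM in the vehicle pair against 32.3 and 30.3 CPM in the DCA pair.

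For transport and inactivation, 5 of 6 genes were tested. Ptgr2, a prostaglandin reductase, was the most abundant in CPM, at 53.4 and 66.3 CPM in the vehicle pair against 60.8 and 54.1 CPM in the DCA pair. Hpgd, which encodes the dehydrogenase that begins prostaglandin inactivation, had 0 counts in both vehicle libraries and in DCA replicate 1, and 2290 counts (9.52 CPM) in DCA replicate 2. The DESeq2 call of Hpgd (adjusted p = 1.78e-08, against 0.416 to 1.00 under the other alternatives) therefore rests on 1 library. It passed the filter on low counts through that library alone and was below it when DCA replicate 2 was left out. Across all genes tested, 9.73% had 0 counts in at least 1 library and 100 or more in another.

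Prostanoid receptors besides the members were tested for 5 of 8 genes, and Ptgdr, Ptgfr, and Tbxa2r had 0 counts throughout. Pparg, a nuclear receptor for lipid ligands that include a prostaglandin D2 product, was at 113 and 150.2 CPM in the vehicle pair against 95.0 and 72.1 CPM in the DCA pair. Both DCA libraries were lower, and the log2 fold change was -0.65 (standard error 0.29, unadjusted p = 0.0661, adjusted p = 0.999 by edgeR). Ptgir, the prostacyclin receptor, was at 66.3 and 42.8 CPM in the vehicle pair against 49.1 and 35.7 CPM in the DCA pair, with overlapping treatments. The 2 other prostaglandin E2 receptors named differed in direction. Ptger2 (EP2), which raises cyclic AMP as EP4 does, was at 4.75 and 0 CPM with vehicle and 12.6 CPM in both DCA libraries (unadjusted p = 0.268, adjusted p = 0.999 in the edgeR test). Ptger3 (EP3), which lowers cyclic AMP, was at 5.25 and 5.65 CPM in the vehicle pair against 2.04 and 1.63 CPM in the DCA pair, for a log2 fold change of -1.57 (standard error 0.11, unadjusted p = 0.285, adjusted p = 0.999 in the edgeR test). On log2(CPM + 1), the scale of the standard error, the Ptger3 difference was -1.19. Whether Ptger2 and Ptger3 differ from each other in their response was not tested.

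**Figure D4:**
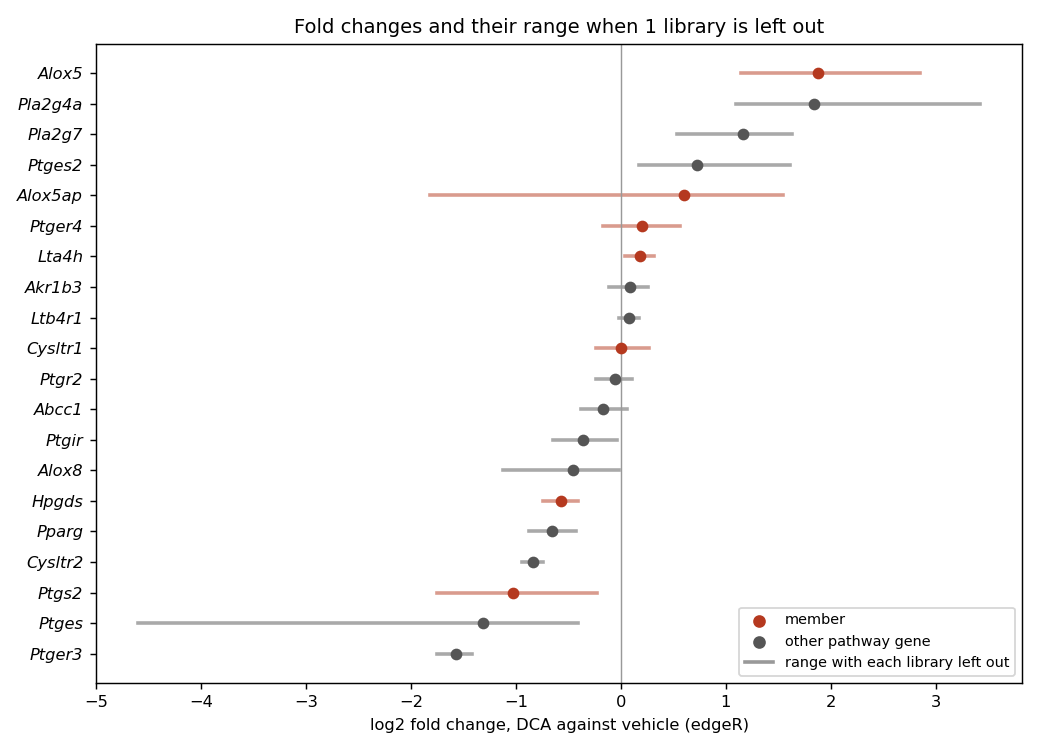
Log2 fold change of DCA against vehicle from edgeR (points) for the 7 tested members (red) and 13 of the 16 other pathway genes named (gray), with bars for the range when each library is left out in turn. Hpgd, Mgst2, and Ptger2, with a vehicle library at 0 counts, are not drawn. The bar of Alox5 runs from 1.14 to 2.85, that of Hpgds from -0.74 to -0.41, and that of Alox5ap crosses 0.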

How the data were processed

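RNA-Seq of 4 libraries was used. The submitters' processing notes name cutadapt 1.9, HISAT2 2.2.1, and mm10. The authors deposited raw counts per gene, all whole numbers, in a table named for FPKM. The counting tool, annotation, and strand setting are not given in the sources used here. Genes with 2 counts outnumbered genes with 1 count in every library, as when both mates of a pair are counted. The 1275 rows without a symbol (0.137% to 0.173% of counts) were kept under their identifiers.

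Testing covered the 11184 genes whose mean reached 1 CPM and was done with edgeR 4.0.16 in R 4.3.3 (TMM, quasi-likelihood, two-sided, Benjamini-Hochberg). Standard errors come from log2(CPM + 1), whereas the log2 fold changes beside them are edgeR estimates. The 2 are on different scales, most of all at low CPM, so their ratio does not measure precision. With 2 libraries per treatment, p-values measure the spread between libraries only. Members and lists were chosen with earlier results of these data known. Alternatives were DESeq2 1.42.0, limma 3.58.1, no filter, a mean of at least 5 CPM, filterByExpr, median-of-ratios and total-count scaling, thinning of DCA replicate 2, a replicate block, and leaving out each library. Named from the pathway list were genes with an unadjusted p under 0.05, the most abundant gene of each of 7 groups, and others chosen after their values were seen. Intervals and floors cover counting error only, as amplified reads are not independent molecules. Exon lengths are from GENCODE vM21 (GRCm38) and positions from RefSeq on GRCm38.p6. Protein sequences were not used here.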

Additional observations from a re-analysis of the deposited data

How the results depend on the processing

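At an adjusted p of 0.05, edgeR called 0 genes (478 at an unadjusted p under 0.05). That number was 128 with DESeq2 and 36 without a filter on low counts, and from 0 to 20 with each library left out, the 20 without vehicle replicate 1. It was 0 under the other 7 alternatives with all libraries. Among the pathway genes the count went from 0 to 1 with DESeq2 (Hpgd) and to 1 without a filter (Pla2g7). The cause of these differences was not tested. DESeq2 was run on the same 11184 genes as the main fit, and the fit without a filter held 17706 genes. The pathway median, -0.17, ranged from -0.20 to -0.053 under the alternatives and from -0.30 to -0.038 with a library left out. The median of the tested members, 0.19, ranged from 0.0069 to 0.19 and from -0.10 to 0.042. Mgst2, at -0.23, was 0.46 with limma on log2(CPM + 1) and 3.07 with the replicate block. Left-out libraries gave ranges that crossed 0 for Mgst2 (-1.25 to 11.4), Abcc1 (-0.38 to 0.060), Ptgr2 (-0.23 to 0.11), Akr1b3 (-0.11 to 0.26), and Ltb4r1 (-0.020 to 0.17). In these fits a treatment with 1 library is assumed to vary like the other. Libraries with one replicate number have nothing else in common by their labels: over all genes, the correlation between deviations from the group means was 0.0197 for libraries with one number. With the replicate block, edgeR called 0 genes (450 at an unadjusted p under 0.05), the pathway median was -0.087, the members' median was 0.028, and the log2 fold change of Alox5 was 1.96 and that of Alox5ap 0.011. Ltc4s, Ptgs1, and Ptgdr2 had at most 11 counts in a library, the deepest included, and no fold is given for them.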
